A study of Mus musculus with 6 samples.

Results

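Histone-modifying enzymes write and remove the acetyl and methyl marks of chromatin, and their messenger RNA levels were compared between HT22 cells induced to make KLF13 and uninduced cells. The set was made by symbol: every gene of the count table whose symbol starts with Kdm, Kmt, Kat, Setd, Hdac, Sirt, Ehmt or Nsd followed by a digit, and Dot1l, Ash1l, Ezh1 and Ezh2. This rule took 74 of 29493 genes. They were 25 lysine methyltransferases, 20 rows named as lysine demethylases, 11 rows named as lysine acetyltransferases, 11 zinc-dependent deacetylases and 7 sirtuins. Of these, 69 were protein-coding, 4 were pseudogenes and 1 was an antisense transcript. HT22 is a cell line derived from mouse hippocampus that the labels call neuronal. All 6 libraries came from the genotype HT22-TR/TO-V5Klf13-1, in which a stable transgene for V5-tagged KLF13, a zinc-finger transcription factor, is placed under the tet repressor. The 3 Dox libraries came from cells given doxycycline at 1 µg/ml and the 3 Vehicle libraries from cells given vehicle, both for 8 hours. All libraries thus rest on a single line made from HT22, and no library held cells without the transgene that received the drug, so effects of KLF13 and of doxycycline are measured together. Nothing in the labels marks the samples of a group as separate cultures, and the p-values given here reflect a spread from sample to sample that may be only technical.

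The N-terminal tails of histones carry marks that are tied to the activity of nearby genes. Acetyltransferases and the methyltransferases of H3K4, H3K36 and H3K79 act mainly at transcribed genes and their enhancers, whereas methylation of H3K9, H3K27 and H4K20 is known for silent chromatin. Demethylases and deacetylases take these marks off, the first by flavin or iron-dependent oxidation and the second with zinc or, in sirtuins, with NAD as a co-substrate. In neurons several of these enzymes, among them Hdac2, Ehmt2 and Kdm1a, are known for roles in maturation and memory. KLF13 binds GC-rich and CACCC sequences and is known to recruit corepressors that contain deacetylases.

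Total counts per library were 38566798 to 52930384, and 18067 genes passed the filter on low counts. Levels are given as CPM, which are counts scaled to the normalised library size. Klf13 itself measured 205, 188 and 184 CPM in the Dox libraries and 37.0, 36.1 and 39.1 CPM in the Vehicle libraries, so every library matched its label. Neuronal markers were scarce: of 13 listed, 5 passed the filter, and their summed level, with 3 others below it, was 32.2 to 33.5 CPM in Dox and 95.8 to 96.9 CPM in Vehicle libraries. The 8 fibroblast markers summed to 8179 to 8559 CPM in Dox and 10016 to 10543 CPM in Vehicle libraries. Map2, Slc17a7 and Gad2 did not pass the filter, and Gad1, Nefl, Nefm, Rbfox3 and Snap25 had no row among the deposited counts. No gene of any kind with a row was at 0 in every library. A missing row therefore cannot tell a marker without reads from one left out for another reason. Summed markers of astrocytes were 44.0 to 47.1 CPM in Dox and 37.1 to 40.0 CPM in Vehicle libraries. Nearly all of that was Slc1a3 (means of 45.7 CPM in Dox and 38.4 CPM in Vehicle libraries), the only astrocyte marker past the filter. Those of microglia were 26.7 to 28.4 CPM in Dox and 35.4 to 37.5 CPM in Vehicle libraries. Of 6 microglia markers 4 were under 1 CPM and 3 were tested, of which 1 rose and 1, Tmem119, fell. Markers of oligodendrocytes and endothelium each summed to less than 5 CPM in every library. Their part in the results was not tested, and in bulk RNA fewer cells of a type and less RNA per cell cannot be told apart.

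More enzyme genes fell than rose with Dox. Of the 74, 69 passed the filter and were tested with edgeR's quasi-likelihood test, and 47 were called at an adjusted p under 0.05, of which 40 fell and 7 rose. That is 68.1% called, against 54.7% of all genes tested. The fallers made up 58.0% of the tested enzymes, against 28.8% of all genes tested, and the risers 10.1%, against 25.9% of all genes tested. The median log2 fold change (Dox over Vehicle) of the 69 genes was -0.31, and that of all genes tested was 0.02. Most of the changes were smaller than 2-fold. Among the enzymes 8 fell by 2-fold or more, namely Hdac11, Hdac6, Ezh1, Kmt5c, Kmt2a, Ehmt2, Sirt5 and Kdm1b, and 0 rose by that much. Across all genes tested 7.51% fell and 1.74% rose by at least 2-fold. In 50 of the 69 enzyme genes the 3 Dox values did not overlap the 3 Vehicle values, as in 64.0% of all genes tested.

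More of the enzymes than of all genes tested had high counts, which bear on how many calls can be made, so the count was repeated above a set level. Of 58 enzyme genes with a mean of at least 10 CPM, 37 (63.8%) fell and 7 (12.1%) rose. In the 10133 genes of all kinds at that level 69.6% were called, 36.8% as lower and 32.8% as higher. The authors' deposited table gives an adjusted p for 69 of the enzyme genes, and 41 were lower and 6 higher at 0.05, against 25.1% lower and 21.4% higher of all 19125 genes with one. The direction was the same as in the edgeR fit for 68 of the 69 genes in the authors' deposited table. The scaling of the libraries moves the balance. Under upper-quartile scaling 10 enzymes were higher and 36 lower, and 58.4% of all calls were higher in place of 47.4%. An offset for transcript length, which is greater in these genes (median 4653 bases, against 2442 in all genes tested), gave 12 higher and 36 lower. The median log2 fold change of the enzymes was -0.18 with this offset and -0.22 under upper-quartile scaling, in place of -0.31. In the same 2 fits the median of all genes was 0.0015 and 0.11.

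**Figure D1:**
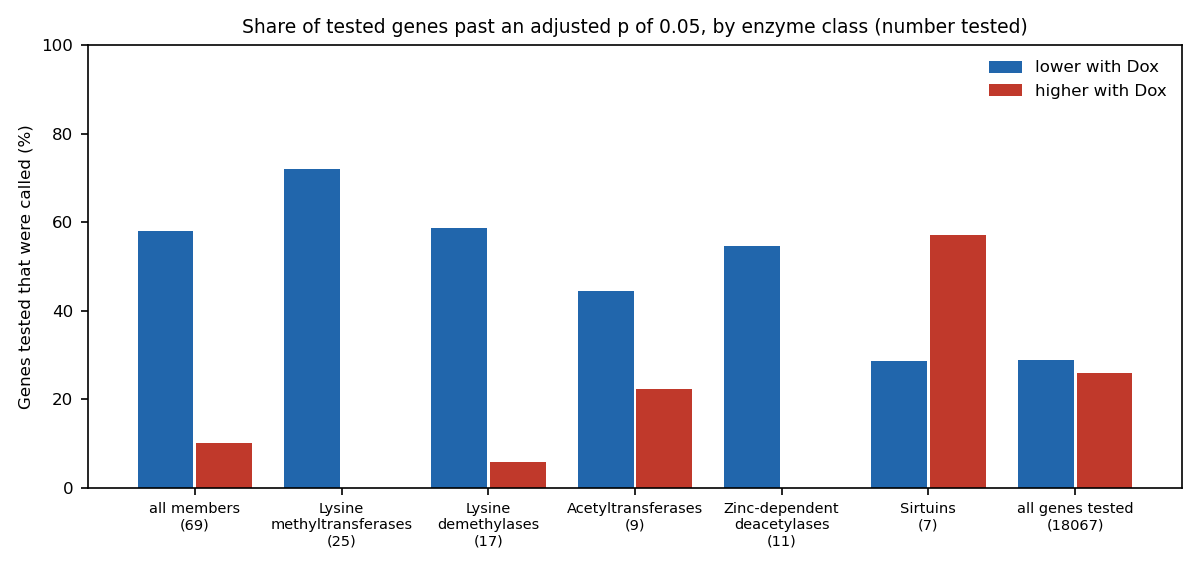
Share of tested genes that were called higher or lower with Dox (y axis, percent) for the enzymes, each class and all genes tested. Among the methyltransferases 18 of 25 fell and 0 rose, whereas 4 of 7 sirtuins rose and 2 fell; all genes tested were 28.8% lower and 25.9% higher.

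**Figure D2:**
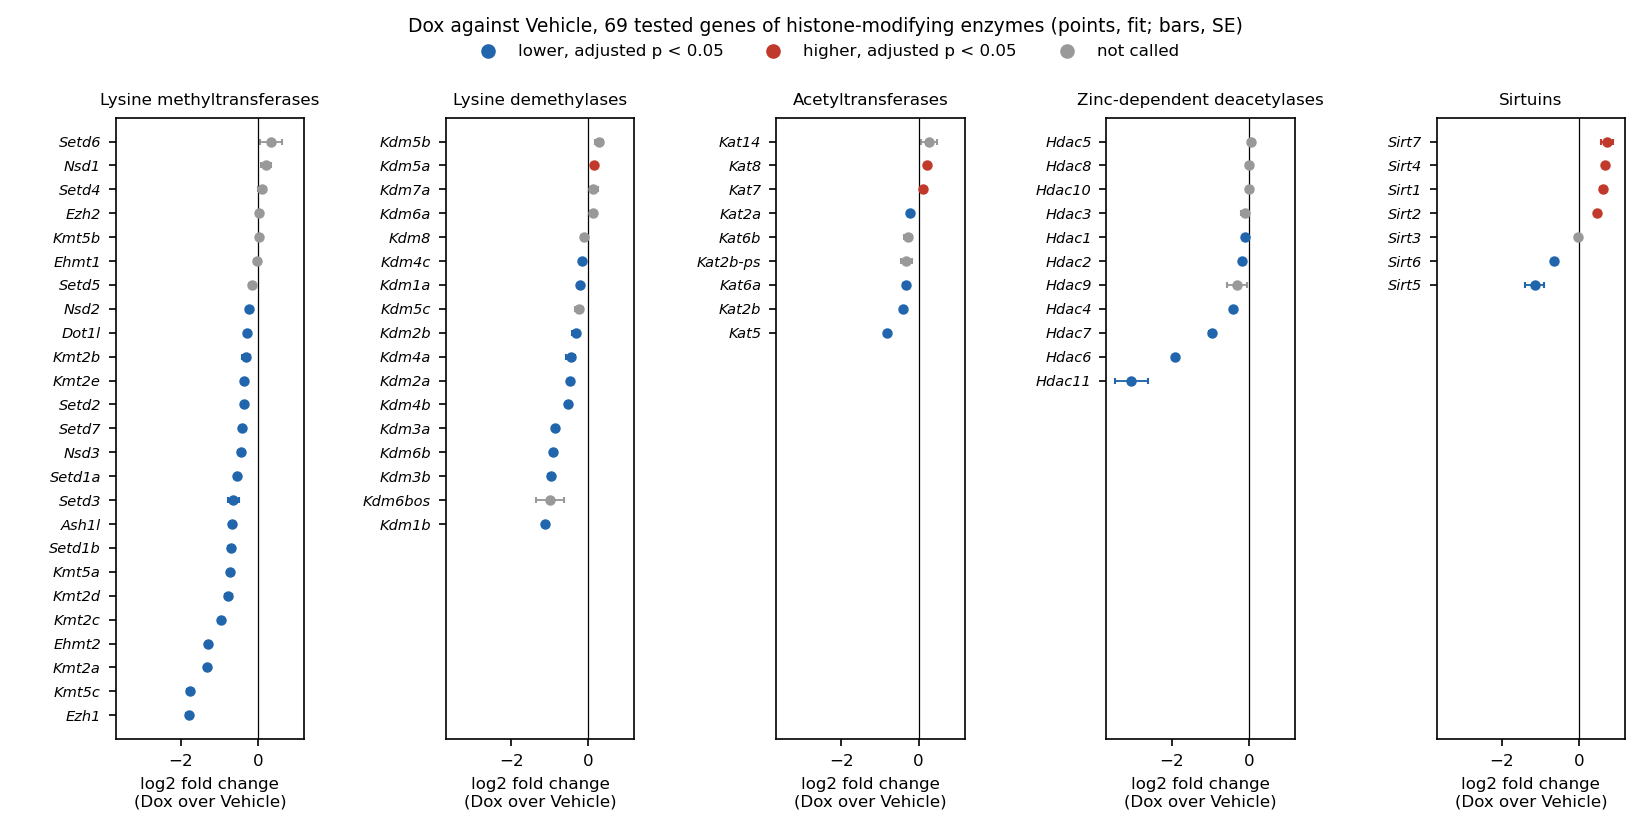
Log2 fold change (Dox over Vehicle, x axis) of each of the 69 tested genes by class; points are fitted values, bars the standard error. Most points lie left of 0 in every panel except that of the sirtuins, where Sirt7, Sirt4, Sirt1 and Sirt2 lie to the right at 0.73, 0.66, 0.61 and 0.47.

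The sequences before the start sites of 8 enzyme genes are shown because KLF13 is a GC-box-binding factor and the genes moved in different ways. Each is the 250 bases upstream of the RefSeq start (mouse build GRCm38.p6), written 5′ to 3′ on the gene's strand. Genes were eligible with a single listed promoter and at most 30 bases of annotated exon of any gene in the window. Among these the 5 with the largest falls and the only 2 that rose were taken, with Ehmt1 as a gene that was not called. Of the 2 that rose, Kat7 had the smallest rise of all 7 enzymes called higher. Kdm1b, whose window holds 95 exonic bases of a gene on the other strand, and Kdm3b are not shown. The exon limit also left out Hdac11 (150 bases), Sirt5 (39), Sirt7 (250), Sirt4 (216) and Sirt2 (156). Capitals mark GGGCGG, the core GC box, and CACCC, on either strand (CCGCCC and GGGTG on the printed one), and overlapping matches run together. On GRCm38, GENCODE M21 places Hdac6 at chrX:7930120-7947889, Ezh1 at chr11:101191115-101226463, Kmt2a at chr9:44803355-44881296 and Sirt1 at chr10:63319005-63381704, all on the - strand. The Sirt1 window lies inside the span that GENCODE gives the gene.
Hdac6, fell, chrX:7947890-7948139, - strand: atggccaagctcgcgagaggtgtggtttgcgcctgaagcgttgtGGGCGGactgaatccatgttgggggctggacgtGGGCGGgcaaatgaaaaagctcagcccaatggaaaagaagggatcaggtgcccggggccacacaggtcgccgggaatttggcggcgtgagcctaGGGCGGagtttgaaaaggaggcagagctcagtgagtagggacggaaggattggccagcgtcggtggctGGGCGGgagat
Ezh1, fell, chr11:101226464-101226713, - strand: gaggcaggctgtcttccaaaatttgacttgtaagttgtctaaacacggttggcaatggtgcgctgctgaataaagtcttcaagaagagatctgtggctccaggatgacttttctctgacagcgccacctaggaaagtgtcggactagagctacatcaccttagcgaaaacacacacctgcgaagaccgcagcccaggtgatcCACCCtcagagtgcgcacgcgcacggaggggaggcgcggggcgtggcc
Kmt5c, fell, chr7:4739877-4740126, + strand: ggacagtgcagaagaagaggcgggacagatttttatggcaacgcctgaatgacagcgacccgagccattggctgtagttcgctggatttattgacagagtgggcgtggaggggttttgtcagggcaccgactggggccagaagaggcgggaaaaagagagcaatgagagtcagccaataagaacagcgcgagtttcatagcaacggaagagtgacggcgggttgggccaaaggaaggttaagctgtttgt
Kmt2a, fell, chr9:44881290-44881539, - strand: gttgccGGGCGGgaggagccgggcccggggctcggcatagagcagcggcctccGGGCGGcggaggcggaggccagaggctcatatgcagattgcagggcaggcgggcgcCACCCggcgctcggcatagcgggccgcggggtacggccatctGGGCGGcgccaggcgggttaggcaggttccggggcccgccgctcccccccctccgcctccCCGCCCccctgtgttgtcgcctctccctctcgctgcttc
Kmt2c, fell, chr5:25498784-25499033, - strand: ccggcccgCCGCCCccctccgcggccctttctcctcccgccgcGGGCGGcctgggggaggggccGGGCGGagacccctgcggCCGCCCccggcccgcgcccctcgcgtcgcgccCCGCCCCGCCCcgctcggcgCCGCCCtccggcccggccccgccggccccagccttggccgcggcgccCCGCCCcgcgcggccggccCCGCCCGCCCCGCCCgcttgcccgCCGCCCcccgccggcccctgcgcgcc
Sirt1, rose, chr10:63339036-63339285, - strand: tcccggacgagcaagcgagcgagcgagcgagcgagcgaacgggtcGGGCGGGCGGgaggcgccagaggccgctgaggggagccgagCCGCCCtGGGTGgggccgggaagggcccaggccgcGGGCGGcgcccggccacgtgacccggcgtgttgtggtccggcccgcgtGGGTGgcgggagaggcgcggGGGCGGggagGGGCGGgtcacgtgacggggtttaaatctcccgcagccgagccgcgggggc
Kat7, rose, chr11:95310247-95310496, - strand: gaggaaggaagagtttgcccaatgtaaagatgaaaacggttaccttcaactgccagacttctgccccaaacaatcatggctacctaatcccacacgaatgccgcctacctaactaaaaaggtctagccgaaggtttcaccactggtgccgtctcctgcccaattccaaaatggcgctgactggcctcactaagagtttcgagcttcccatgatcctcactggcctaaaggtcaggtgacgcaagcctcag
Ehmt1, not called, chr2:24919610-24919859, - strand: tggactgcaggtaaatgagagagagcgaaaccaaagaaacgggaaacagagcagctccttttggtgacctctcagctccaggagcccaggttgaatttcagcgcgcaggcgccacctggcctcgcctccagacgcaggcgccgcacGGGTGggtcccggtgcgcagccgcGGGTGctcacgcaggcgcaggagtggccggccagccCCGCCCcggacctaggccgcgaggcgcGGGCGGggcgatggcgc

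GGGCGG occurred 4 times in the Hdac6 window, 4 times in Kmt2a, 12 times in Kmt2c, 6 times in Sirt1 and 2 times in Ehmt1, and it was not found in Ezh1, Kmt5c or Kat7. CACCC occurred once each in Ezh1 and Kmt2a and 2 times each in Sirt1 and Ehmt1. RefSeq promoters were matched for 53 enzyme genes, with 74 promoters in all. GGGCGG lay in 59.5% of those 74, in 55.4% of promoters of all genes tested and in 32.7% of all promoters in the table. It lay in 59.1% of the promoters of enzymes that fell, in 71.4% of those that rose, which are 7 promoters, and in 61.9% of those not called. Across all genes tested it lay in 66.1% of promoters of genes that fell and in 49.7% of genes that rose. Those promoters also differed in median GC content, 62.8% for genes that fell and 57.6% for genes that rose. The part of GC content in the motif shares was not tested. CACCC lay in 63.5% of enzyme promoters, 56.7% of promoters of genes tested and 52.0% of all promoters. A match describes letters in the window, not binding.

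The methyltransferases were the class with the most falls, 18 of 25, and 0 rose (median log2 fold change -0.41). That is 72.0% called, all lower. Of all genes tested 54.7% were called, 28.8% as lower and 25.9% as higher. All 7 genes grouped here as H3K4 methyltransferases, those with Kmt2 and Setd1 symbols, fell, with a median of -0.69. Setd7, which also methylates H3K4, was counted with the remaining SET-domain genes. Methyltransferases outside the symbol rule were not in this group. Of 19 of those tested 8 fell and 7 rose, among them Prdm9 (log2 fold change 0.92, adjusted p = 5.29e-05, edgeR). Kmt2a, the MLL1 enzyme of H3K4 at developmental genes, measured 59.6, 55.4 and 54.7 CPM in Dox and 147, 134 and 144 CPM in Vehicle libraries. Every Dox library lay far below every Vehicle library, and the gene fell 2.50-fold (log2 fold change -1.32 ± 0.050 SE, adjusted p = 4.55e-06, edgeR). Kmt2c and Kmt2d, which act at enhancers, had log2 fold changes of -0.95 (adjusted p = 2.12e-05) and -0.77 (adjusted p = 0.000327). Setd1b and Setd1a, the catalytic subunits of the SET1 complexes at promoters, had log2 fold changes of -0.69 (adjusted p = 0.000481) and -0.53 (adjusted p = 0.000315). Kmt2e, a family member with a divergent SET domain, fell by 0.36 on the log2 scale (adjusted p = 0.000801). Kmt2b, the nearest paralogue of Kmt2a, measured 76.7, 94.3 and 86.8 CPM in Dox and 107, 117 and 94.95 CPM in Vehicle libraries. Its groups almost touched, and its fall of 0.30 on the log2 scale (adjusted p = 0.0401) was the smallest of the 7. The Kmt2b call was lost without Dox replicate 1 (-0.23, adjusted p = 0.0986), Dox replicate 3 (-0.31, adjusted p = 0.0894), Vehicle replicate 1 (-0.30, adjusted p = 0.0899) or Vehicle replicate 2 (-0.23, adjusted p = 0.111), and under upper-quartile scaling, without a filter on low counts or with either offset.

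For each repressive mark at least 1 enzyme fell while a paralogue was not called. Ezh1 and Ezh2 are the alternative catalytic subunits of Polycomb repressive complex 2, which methylates H3K27. Ezh1, the form known from cells that no longer divide, measured 5.38, 6.16 and 5.67 CPM in Dox and 19.8, 19.7 and 20.2 CPM in Vehicle libraries. It fell 3.47-fold (log2 fold change -1.80 ± 0.062 SE, adjusted p = 3.32e-06, edgeR), the deepest fall in the class. Ezh2, the form known from dividing cells, measured 77.3, 75.8 and 82.4 CPM in Dox and 75.4, 78.7 and 76.3 CPM in Vehicle libraries. These ranges overlapped, with a log2 fold change of 0.03 ± 0.040 (adjusted p = 0.534, edgeR), although upper-quartile scaling gave 0.13 (adjusted p = 0.0352).

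Ehmt2 (G9a) and Ehmt1 (GLP) work as a complex that places mono- and dimethylation on H3K9. Ehmt2 measured 59.0, 58.9 and 58.4 CPM in Dox and 151, 139 and 140 CPM in Vehicle libraries, with very little spread among the Dox libraries. It fell 2.44-fold (log2 fold change -1.29 ± 0.038 SE, adjusted p = 2.18e-06, edgeR). Ehmt1 measured 62.8, 55.3 and 49.9 CPM in Dox and 58.8, 56.5 and 56.5 CPM in Vehicle libraries. The Dox values lay on both sides of the Vehicle values, and the log2 fold change was -0.03 ± 0.082 (adjusted p = 0.765, edgeR), with the sign turned under upper-quartile scaling (0.06).

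H4K20 is monomethylated by Kmt5a and taken further by Kmt5b and Kmt5c. Kmt5c measured 4.27, 4.01 and 3.85 CPM in Dox and 12.6, 14.5 and 14.4 CPM in Vehicle libraries. It fell 3.43-fold (log2 fold change -1.78 ± 0.079 SE, adjusted p = 7.52e-06, edgeR), with the groups far apart. Kmt5a also fell, by 0.72 on the log2 scale (adjusted p = 8.29e-06), and had 75.7 ± 1.83 TPM in Dox and 124 ± 1.56 TPM in Vehicle libraries (SD, n = 3 each; TPM are counts per transcript length, scaled to the same total in each library). Kmt5b was not called, with a log2 fold change of 0.01 ± 0.035, but it was called higher under upper-quartile scaling (0.11, adjusted p = 0.0337) and with the offset for transcript length (0.15, adjusted p = 0.00771).

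Of the 5 H3K36 methyltransferases 4 fell. Ash1l, an activating enzyme that counteracts Polycomb, measured 94.9, 102 and 92.4 CPM in Dox and 147, 164 and 151 CPM in Vehicle libraries. It fell 1.60-fold (log2 fold change -0.67 ± 0.056 SE, adjusted p = 9.54e-05, edgeR). The dimethylating Nsd3 and Nsd2 fell by 0.44 (adjusted p = 0.00203) and 0.22 (adjusted p = 0.003), and Setd2, the main source of H3K36 trimethylation, by 0.36 (adjusted p = 0.00227), all on the log2 scale. The Nsd2 call was lost with the offset for transcript length (-0.06, adjusted p = 0.228). Nsd1 was not called (0.20 ± 0.13, adjusted p = 0.24), but with the same offset it was called higher (0.44, adjusted p = 0.0132). Dot1l, the only known H3K79 methyltransferase, measured 104, 109 and 105 CPM in Dox and 128, 129 and 128 CPM in Vehicle libraries. The 2 groups were tight and separate, so a small fall of 1.21-fold was called (log2 fold change -0.28 ± 0.029 SE, adjusted p = 0.00026, edgeR).

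The remaining SET-domain genes have varied substrates. Setd7, which methylates H3K4 and many other proteins, measured 134, 140 and 130 CPM in Dox and 174, 187 and 176 CPM in Vehicle libraries. It fell 1.33-fold (log2 fold change -0.41 ± 0.042 SE, adjusted p = 0.000238, edgeR). Setd3, an actin histidine methyltransferase, fell by 0.64 on the log2 scale (adjusted p = 0.0107), with 35.1, 27.6 and 28.0 CPM in Dox and 38.1, 52.1 and 50.8 CPM in Vehicle libraries. Setd4, Setd5 and Setd6 were not called. Setd6, known for methylating the NF-κB subunit RelA, varied most, with 15.0, 23.9 and 25.3 CPM in Dox and 11.2, 19.7 and 19.98 CPM in Vehicle libraries, so replicate 1 was low in both groups. Without Vehicle replicate 1, Setd5 was called (-0.23, adjusted p = 0.0173, edgeR).

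**Figure D3:**
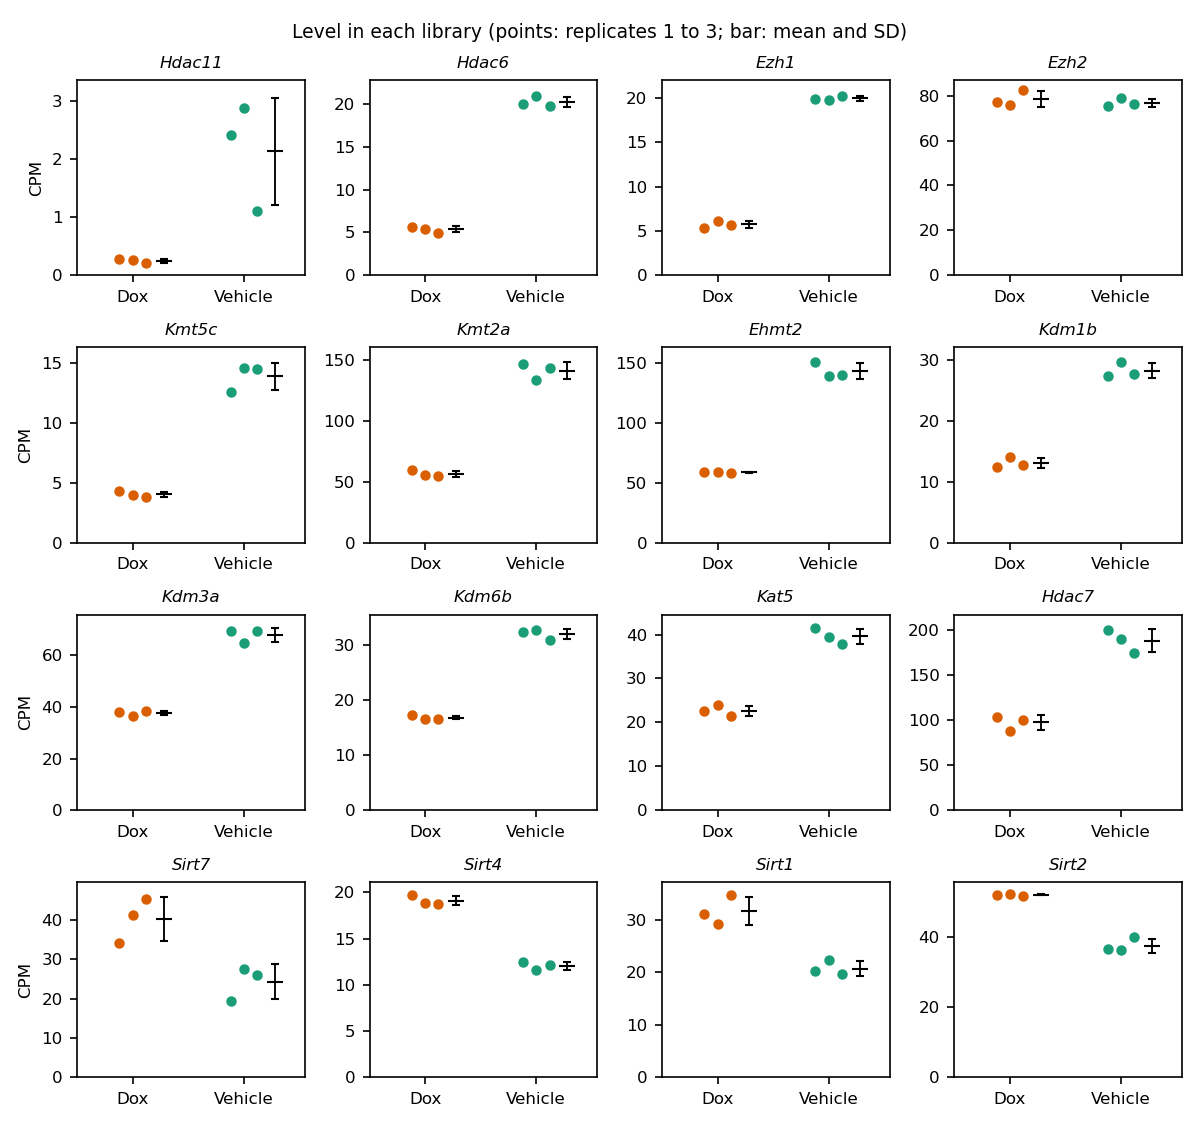
Level of 16 enzyme genes in each library (y axis, CPM from 0), Dox left and Vehicle right in every panel; points are replicates 1 to 3 and bars the mean with SD. The Dox points of Ezh1, Ehmt2 and Hdac6 lie far below the Vehicle points and those of Sirt1, Sirt2, Sirt4 and Sirt7 above them, whereas the Ezh2 points overlap.

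Among the demethylases 10 of 17 tested fell and 1 rose (median log2 fold change -0.33). The share called was 64.7%, with 58.8% lower, against 54.7% called and 28.8% lower of all genes tested. The flavin-dependent pair that acts on H3K4 and H3K9 fell in both members. Kdm1b (LSD2) measured 12.4, 14.1 and 12.7 CPM in Dox and 27.4, 29.6 and 27.7 CPM in Vehicle libraries. It fell 2.16-fold (log2 fold change -1.11 ± 0.065 SE, adjusted p = 2.02e-05, edgeR). Kdm1a (LSD1), the catalytic partner of the CoREST corepressor, measured 55.8, 58.9 and 57.0 CPM in Dox and 61.4, 70.8 and 65.8 CPM in Vehicle libraries. Its groups were separate but close, with a fall of 1.15-fold (log2 fold change -0.20 ± 0.056 SE, adjusted p = 0.021, edgeR). The Kdm1a call was lost without Dox replicate 1 (-0.18, adjusted p = 0.0633), Dox replicate 3 (-0.20, adjusted p = 0.054) or Vehicle replicate 3 (-0.21, adjusted p = 0.0538), and under upper-quartile scaling or without a filter.

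All 5 tested genes with Kdm3 or Kdm4 symbols, whose enzymes act on H3K9, fell. Jmjd1c, a related H3K9 demethylase outside the symbol rule, rose (log2 fold change 0.30, adjusted p = 0.00974, edgeR). Kdm3b and Kdm3a remove mono- and dimethylation, and the KDM4 enzymes remove trimethylation of H3K9 and H3K36. Kdm3b measured 34.9, 38.7 and 35.8 CPM in Dox and 70.8, 78.7 and 66.3 CPM in Vehicle libraries, a fall of 1.97-fold (log2 fold change -0.98 ± 0.074 SE, adjusted p = 6.08e-05, edgeR). Kdm3a measured 38.0, 36.7 and 38.3 CPM in Dox and 69.4, 65.0 and 69.5 CPM in Vehicle libraries, a fall of 1.81-fold (log2 fold change -0.85 ± 0.040 SE, adjusted p = 8.64e-06, edgeR). In both Kdm3a and Kdm3b the Dox and Vehicle values were far apart. The KDM4 falls were smaller, at -0.53 for Kdm4b (adjusted p = 0.000179), -0.46 for Kdm4a (adjusted p = 0.0174) and -0.17 for Kdm4c (adjusted p = 0.0257) on the log2 scale. Kdm4a measured 71.2, 70.9 and 94.9 CPM in Dox and 103, 115 and 108 CPM in Vehicle libraries, so Dox replicate 3 stood near the Vehicle range. The Kdm4a call was lost without Dox replicate 1 (-0.39, adjusted p = 0.0557), Dox replicate 2 (-0.38, adjusted p = 0.0541) or Vehicle replicate 2 (-0.42, adjusted p = 0.0573), and that of Kdm4c without Dox replicate 1 (-0.14, adjusted p = 0.0761) or Dox replicate 3 (-0.16, adjusted p = 0.0664). Kdm4c was also not called under upper-quartile scaling (-0.07, adjusted p = 0.201), with the length offset (-0.10, adjusted p = 0.0597) or without a filter on low counts (-0.16, adjusted p = 0.0722). Kdm4d was not tested: it had 2, 6 and 3 counts in the Dox libraries and 0 in each Vehicle library, where a count of 0 allows up to 3 counts for counting error alone.

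Of the H3K27 demethylases 1 fell and the other was not called. Kdm6b (JMJD3), an inducible enzyme, measured 17.2, 16.6 and 16.6 CPM in Dox and 32.2, 32.8 and 30.8 CPM in Vehicle libraries. It fell 1.90-fold (log2 fold change -0.93 ± 0.043 SE, adjusted p = 8.41e-06, edgeR). Its X-linked paralogue Kdm6a (UTX) was not called (0.11 ± 0.081, adjusted p = 0.285), except with the length offset (0.24, adjusted p = 0.0252). The antisense transcript Kdm6bos, which shares exonic sequence with Kdm6b, was low, with 0.188, 0.344 and 0.129 CPM in Dox and 0.530, 0.456 and 0.366 CPM in Vehicle libraries. It was not called (adjusted p = 0.0617, edgeR), except without Dox replicate 2 (-1.49, adjusted p = 0.0135). Whether counting used strand is not given in the sources used here, so reads of the 2 cannot be assigned with certainty.

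The KDM2 enzymes, which bind unmethylated CpG DNA and act on H3K36, both fell. Kdm2a measured 131, 137 and 129 CPM in Dox and 179, 190 and 184 CPM in Vehicle libraries and fell 1.39-fold (log2 fold change -0.48 ± 0.035 SE, adjusted p = 5.4e-05, edgeR). Kdm2b, a subunit of a Polycomb complex, fell by 0.33 on the log2 scale (adjusted p = 0.0146), a call that was lost with the length offset (-0.23, adjusted p = 0.0616). The KDM5 enzymes, which remove H3K4 trimethylation, had 1 rise and 0 falls among the 3 tested. Kdm5a rose slightly, with 66.7, 70.7 and 67.9 CPM in Dox and 58.6, 64.9 and 62.9 CPM in Vehicle libraries (log2 fold change 0.14 ± 0.047 SE, adjusted p = 0.0439, edgeR). That call was lost without any 1 of Dox replicates 1 to 3 or of Vehicle replicates 1 and 3 (adjusted p of 0.0517 to 0.109). It was also lost with DESeq2 size factors (0.14, adjusted p = 0.0518), without a filter on low counts (0.14, adjusted p = 0.104) and with the GC offset (0.09, adjusted p = 0.106). Neither DESeq2's Wald test (0.14, adjusted p = 0.0506) nor the authors' deposited table called Kdm5a. Kdm5b (0.29 ± 0.10, adjusted p = 0.0542) and Kdm5c (-0.24 ± 0.095, adjusted p = 0.0737) were not called. Without Vehicle replicate 2 Kdm5b was called higher (0.41, adjusted p = 0.00276), and without Dox replicate 2 Kdm5c was called lower (-0.31, adjusted p = 0.032). Kdm5b was also called higher under upper-quartile scaling (0.38, adjusted p = 0.0154), with a filter at 5 CPM (0.31, adjusted p = 0.034) and with the length offset (0.48, adjusted p = 0.00338). Kdm5c was also called lower by DESeq2's Wald test (-0.24, adjusted p = 0.0198) and in the authors' deposited table. Kdm7a, which acts on H3K9 and H3K27, was not called (0.13 ± 0.12, adjusted p = 0.394), except with the length offset (0.33, adjusted p = 0.0182). Kdm8 was not called, and Kdm5d, which is Y-linked, had at most 5 counts in a library and was not tested.

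The acetyltransferases moved in both directions, with 4 of 9 tested lower and 2 higher (median log2 fold change -0.27). These are 44.4% lower and 22.2% higher, against 28.8% and 25.9% of all genes tested. Kat5 (TIP60), the enzyme of the NuA4 complex, measured 22.5, 23.9 and 21.4 CPM in Dox and 41.4, 39.5 and 38.0 CPM in Vehicle libraries. It fell 1.75-fold (log2 fold change -0.81 ± 0.056 SE, adjusted p = 4.24e-05, edgeR), the deepest fall of the class. Kat2b (PCAF) measured 30.7, 30.8 and 32.8 CPM in Dox and 39.4, 42.7 and 41.9 CPM in Vehicle libraries, a fall of 1.32-fold (log2 fold change -0.40 ± 0.047 SE, adjusted p = 0.000517, edgeR). Its paralogue Kat2a (GCN5), the enzyme of the SAGA complex, measured 134, 133 and 136 CPM in Dox and 159, 160 and 151 CPM in Vehicle libraries. The Kat2a fall was 1.16-fold (log2 fold change -0.22 ± 0.030 SE, adjusted p = 0.00102, edgeR), and with the offset for GC content it was -0.07 (adjusted p = 0.0865). Kat6a (MOZ) measured 67.0, 74.9 and 64.3 CPM in Dox and 81.4, 92.2 and 84.1 CPM in Vehicle libraries, a fall of 1.25-fold (log2 fold change -0.32 ± 0.072 SE, adjusted p = 0.00882, edgeR).

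Both risers of the class belong to the MYST family, as do Kat5 and Kat6a. Kat8 (MOF), which acetylates H4K16, measured 21.9, 23.1 and 23.2 CPM in Dox and 19.8, 19.4 and 19.6 CPM in Vehicle libraries (log2 fold change 0.21, adjusted p = 0.00496, edgeR). Kat7 (HBO1) measured 137, 137 and 139 CPM in Dox and 128, 129 and 127 CPM in Vehicle libraries (log2 fold change 0.10, adjusted p = 0.00625, edgeR). Neither rise passed a test against a 1.2-fold change, and nor did the falls of Kat2a and Kat6a. Kat6b was not called (-0.27 ± 0.10, adjusted p = 0.0659), but it was without Vehicle replicate 2 (-0.35, adjusted p = 0.0279) and with the GC offset (-0.31, adjusted p = 0.0382). Kat14, a subunit of the ATAC complex, spread widely, with 31.2, 43.7 and 47.6 CPM in Dox and 42.2, 32.5 and 27.3 CPM in Vehicle libraries, and the groups overlapped. The pseudogene Kat2b-ps was near 1 CPM and not called, except without Vehicle replicate 2 (-0.44, adjusted p = 0.0196). Kat6b-ps1, Kat6b-ps2 and the demethylase pseudogene Kdm4dl had too few counts to be tested, and reads of such copies can be shared with their parent genes.

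Of the zinc-dependent deacetylases 6 of 11 fell and 0 rose (median log2 fold change -0.17). The share called, 54.5%, was near the 54.7% of all genes tested, of which 28.8% were lower and 25.9% higher. The class I enzymes had log2 fold changes of -0.17 to 0.01. Of these, Hdac1 and Hdac2 sit in the Sin3, NuRD and CoREST corepressor complexes and Hdac3 in NCoR. Hdac1 measured 137, 135 and 140 CPM in Dox and 148, 146 and 146 CPM in Vehicle libraries, a fall of 1.07-fold (log2 fold change -0.09 ± 0.024 SE, adjusted p = 0.0154, edgeR). That call was lost without Dox replicate 1 (-0.09, adjusted p = 0.0701) or Dox replicate 2 (-0.08, adjusted p = 0.0664), and under upper-quartile scaling the fold change was near 0 (adjusted p = 0.977). Hdac2 measured 169, 173 and 175 CPM in Dox and 193, 192 and 196 CPM in Vehicle libraries, a fall of 1.13-fold (log2 fold change -0.17 ± 0.024 SE, adjusted p = 0.00103, edgeR). Hdac3 measured 86.8, 86.0 and 83.2 CPM in Dox and 98.1, 75.4 and 99.6 CPM in Vehicle libraries. It was not called (-0.09 ± 0.11, adjusted p = 0.493, edgeR), as Vehicle replicate 2 lay below all Dox libraries, and without that library it was (-0.21, adjusted p = 0.00301). Hdac8 was not called (0.01 ± 0.078).

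The larger falls were in classes II and IV. Hdac6, a mainly cytoplasmic deacetylase of tubulin, measured 5.68, 5.45 and 4.99 CPM in Dox and 20.01, 20.9 and 19.8 CPM in Vehicle libraries. It fell 3.76-fold (log2 fold change -1.91 ± 0.064 SE, adjusted p = 2.97e-06, edgeR), while its class IIb partner Hdac10 was not called (0.00 ± 0.056, adjusted p = 0.995). Hdac7, a class IIa enzyme that shuttles between nucleus and cytoplasm, measured 104, 88.4 and 99.9 CPM in Dox and 200, 190 and 175 CPM in Vehicle libraries, a fall of 1.93-fold (log2 fold change -0.95 ± 0.076 SE, adjusted p = 7.76e-05, edgeR). Hdac4, of the same class, measured 39.6, 41.9 and 39.9 CPM in Dox and 56.2, 53.0 and 53.2 CPM in Vehicle libraries, a fall of 1.34-fold (log2 fold change -0.42 ± 0.040 SE, adjusted p = 0.00018, edgeR). Hdac5 (0.06 ± 0.073, adjusted p = 0.507) and Hdac9, at under 0.4 CPM in every library, were not called, although Hdac5 was called higher with the GC offset (0.25, adjusted p = 0.0169). Hdac11, the only class IV enzyme, had 12, 13 and 10 counts in Dox and 91, 120 and 57 counts in Vehicle libraries. This was 0.282, 0.263 and 0.215 CPM in Dox and 2.41, 2.88 and 1.10 CPM in Vehicle libraries, a low level in both groups. Its fall of 8.28-fold (log2 fold change -3.05 ± 0.42 SE, adjusted p = 0.001, edgeR) was the largest and the least precise among the called enzymes, and the groups did not overlap. The authors' deposited table gives a smaller log2 fold change for Hdac11, -2.15.

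The sirtuins were the class with more rises than falls, 4 against 2 of 7 (median log2 fold change 0.47). In percent 57.1% rose and 28.6% fell, against 25.9% and 28.8% of all genes tested. Sirt7, a nuclear deacetylase concentrated in the nucleolus, measured 34.2, 41.3 and 45.2 CPM in Dox and 19.3, 27.5 and 25.9 CPM in Vehicle libraries. It rose 1.66-fold (log2 fold change 0.73 ± 0.16 SE, adjusted p = 0.00807, edgeR), with replicate 1 lowest in both groups. Sirt4, a mitochondrial enzyme, measured 19.7, 18.9 and 18.8 CPM in Dox and 12.5, 11.6 and 12.1 CPM in Vehicle libraries, a rise of 1.59-fold (log2 fold change 0.66 ± 0.049 SE, adjusted p = 5.4e-05, edgeR). Sirt1, the main nuclear sirtuin with targets among histones and transcription factors, measured 31.2, 29.2 and 34.6 CPM in Dox and 20.1, 22.3 and 19.7 CPM in Vehicle libraries. It rose 1.53-fold (log2 fold change 0.61 ± 0.081 SE, adjusted p = 0.000801, edgeR), and its groups did not overlap. Sirt2, a mainly cytosolic enzyme, measured 51.9, 51.9 and 51.6 CPM in Dox and 36.3, 36.2 and 39.7 CPM in Vehicle libraries, a rise of 1.38-fold (log2 fold change 0.47 ± 0.045 SE, adjusted p = 0.000178, edgeR).

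The 2 sirtuins that fell were of different compartments. Sirt6, a chromatin enzyme that acts on H3K9 acetylation, measured 15.1, 13.9 and 13.8 CPM in Dox and 22.5, 21.8 and 22.4 CPM in Vehicle libraries. It fell 1.56-fold (log2 fold change -0.64 ± 0.052 SE, adjusted p = 8.47e-05, edgeR). Sirt5, a mitochondrial desuccinylase, was low, with 44, 38 and 24 counts in Dox and 60, 78 and 87 counts in Vehicle libraries. It measured 1.03, 0.770 and 0.516 CPM in Dox and 1.59, 1.87 and 1.68 CPM in Vehicle libraries. This was a fall of 2.22-fold (log2 fold change -1.15 ± 0.24 SE, adjusted p = 0.00634, edgeR). Sirt3, the third mitochondrial sirtuin, was not called (-0.03 ± 0.069, adjusted p = 0.707). Neither the nuclear nor the mitochondrial sirtuins thus shared a direction: the nuclear Sirt1 and Sirt7 rose and Sirt6 fell, and the mitochondrial Sirt4 rose and Sirt5 fell. Each of the 4 rises and of the falls of Sirt5 and Sirt6 was called again without any single library.

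To set related genes beside each other, the ratio of their levels per transcript length was formed within each library. The ratio of Ezh1 to Ezh2 was 0.048 ± 0.0046 in Dox and 0.172 ± 0.0051 in Vehicle libraries (SD, n = 3 each). That of Ehmt2 to Ehmt1 was 1.57 ± 0.17 in Dox and 3.70 ± 0.081 in Vehicle libraries. Kmt2a to Kmt2b stood at 0.342 ± 0.051 in Dox and 0.693 ± 0.094 in Vehicle libraries. Kmt5c to Kmt5b stood at 0.238 ± 0.0094 in Dox and 0.824 ± 0.054 in Vehicle libraries. Kdm6b to Kdm6a stood at 0.404 ± 0.020 in Dox and 0.834 ± 0.057 in Vehicle libraries, and Sirt6 to Sirt1 at 1.06 ± 0.11 in Dox and 2.52 ± 0.21 in Vehicle libraries. Hdac1 to Hdac2, by contrast, stood at 1.27 ± 0.020 in Dox and 1.21 ± 0.017 in Vehicle libraries. In each of these 7 pairs the groups did not overlap, as in 64.0% of all genes tested singly. The pairs were chosen once values had been seen, so this separation is no support for a shift between related genes. For each pair the exact 2-sided permutation p was 0.1. That is the smallest that 3 against 3 can give, so none can pass 0.05. A ratio describes how unequally 2 genes changed and does not depend on how the libraries were scaled.

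**Figure D4:**
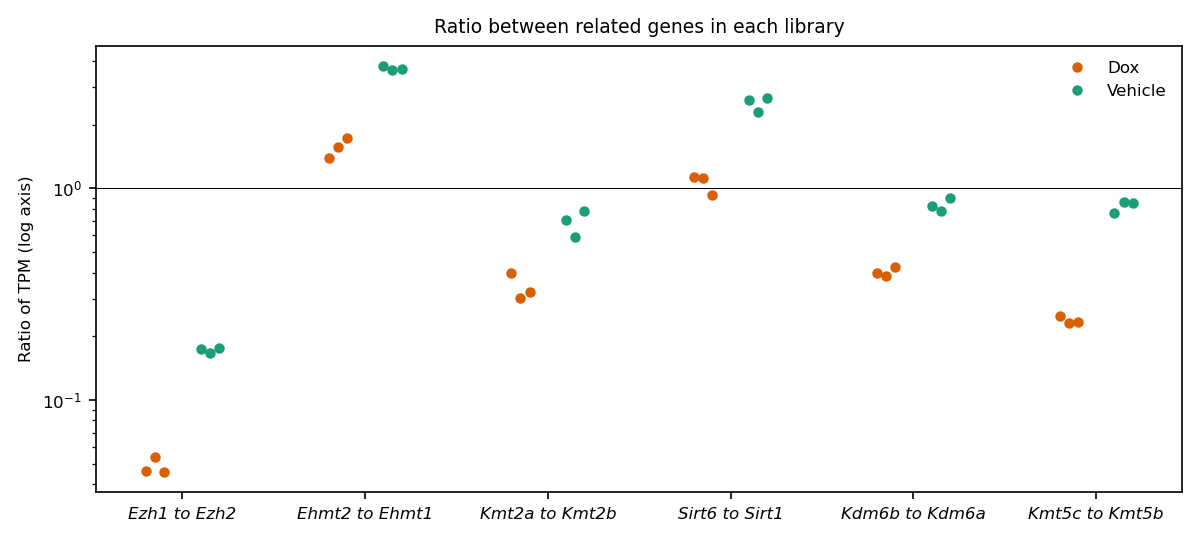
Ratio of TPM between related enzymes (y axis, log scale) in each library, Dox left of Vehicle for each pair. The points of Ezh1 to Ezh2 lie near 0.048 in Dox and 0.172 in Vehicle libraries. Those of Ehmt2 to Ehmt1 lie near 1.57 in Dox and 3.70 in Vehicle libraries. Hdac1 to Hdac2 is not plotted.

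For a comparison between genes, levels were taken per transcript length. Hdac1 had the highest level of the set in both groups, with 124 ± 1.46 TPM in Dox and 133 ± 0.76 TPM in Vehicle libraries (SD, n = 3 each). Hdac2 followed in Dox with 97.8 ± 1.80 TPM, then Kat2a with 81.4 ± 0.44, Hdac3 with 77.5 ± 2.15 and Kmt5a with 75.7 ± 1.83, of which Hdac3 and Kmt5a did not differ beyond their spread. In Vehicle libraries Kmt5a came second with 124 ± 1.56 TPM, before Hdac2 with 110 ± 1.2, Kat2a with 94.8 ± 3.45 and Hdac3 with 82.5 ± 11.6. Ehmt2 stood at rank 19 in Dox and rank 8 in Vehicle libraries. Sirt1 stood at rank 36 in Dox and rank 56 in Vehicle libraries, and Sirt7 at rank 9 in Dox and rank 24 in Vehicle libraries. TPM used the longest transcript of each gene model, coding ones first, so a change of isoform would move these levels.

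**Figure D5:**
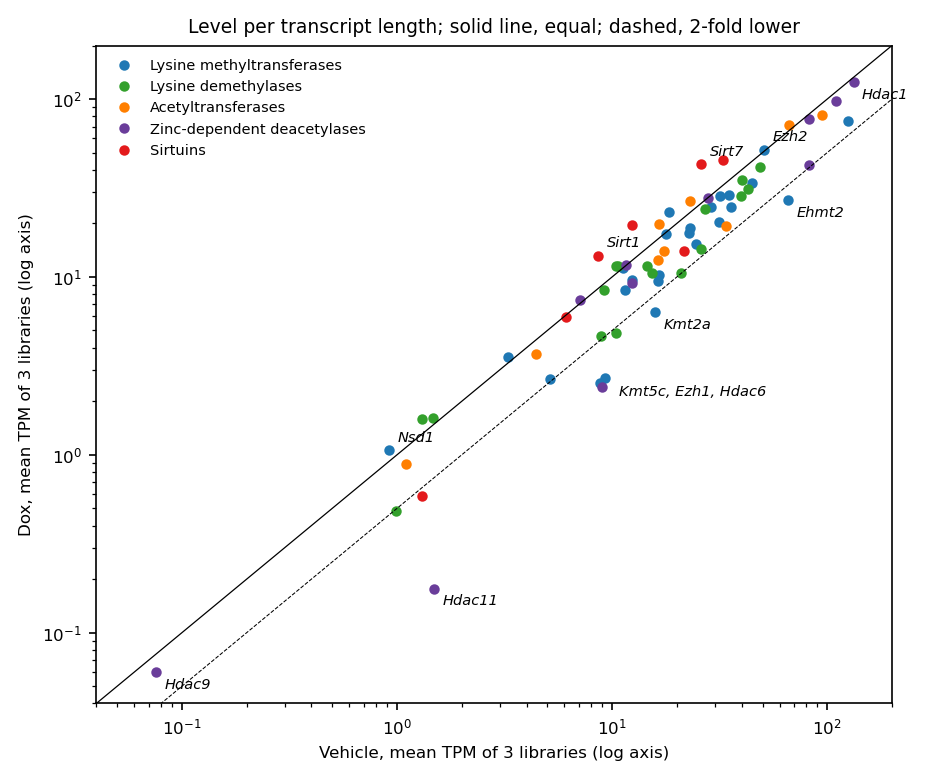
Mean TPM of each tested enzyme gene in Dox (y axis) and Vehicle (x axis) libraries, both on log axes, coloured by class; the solid line marks equal levels and the dashed line a 2-fold fall. Hdac11, Kmt5c, Ezh1, Hdac6, Kmt2a and Ehmt2 are among the points below the dashed line, and Sirt1 and Sirt7 above the solid one.

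Partner subunits and related enzymes that the symbol rule leaves out were counted in 7 lists. Of 15 tested NuRD and CoREST subunits, which carry Hdac1, Hdac2 and Kdm1a, 11 fell and 1 rose (median log2 fold change -0.79). Chd3, a remodelling ATPase of NuRD, fell by 1.66 and its paralogue Chd4 by 1.15 on the log2 scale. Of 38 tested subunits of acetyltransferase complexes 23 fell and 9 rose (median -0.25), with Jade2 of the HBO1 complex at -1.86 and Supt20 of SAGA at -1.36. Of 11 other acetyltransferases 9 fell and 1 rose (median -0.26). Among them Ncoa1, a nuclear receptor coactivator, stood at -1.87 and Crebbp, the CBP coactivator, at -0.42. In these 3 lists 73.3%, 60.5% and 81.8% of the tested genes fell, in the order given. That compares with 28.8% of all genes tested and 36.8% of those with a mean of at least 10 CPM. The lists were not limited to that level, and the differences were not tested.

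The partners of the H3K4 and H3K27 enzymes and 2 further lists are set beside all genes tested, of which 28.8% fell and 25.9% rose. With a mean of at least 10 CPM those shares were 36.8% and 32.8%. No difference from either was tested. Of 13 COMPASS subunits, which bind the H3K4 methyltransferases, 5 (38.5%) fell and 4 (30.8%) rose (median -0.02), and Wdr5, a core subunit of all these complexes, was not called (0.03 ± 0.023). Psip1, which tethers the KMT2A complex to chromatin, fell by 1.13, and Ncoa6, of the KMT2C and KMT2D complexes, fell by 0.77. Of 8 tested partners of Ezh1 and Ezh2 in Polycomb repressive complex 2, 3 (37.5%) fell and 2 rose (median -0.33), with the histone-binding Rbbp7 at -0.66 and the accessory subunit Phf1 at -0.63. Of 19 other methyltransferases 8 (42.1%) fell and 7 (36.8%) rose (median -0.13). Prmt2, an arginine methyltransferase, had the deepest fall of any list, with 2.07, 1.86 and 2.06 CPM in Dox and 20.9, 22.1 and 20.4 CPM in Vehicle libraries (log2 fold change -3.40), whereas Setdb2, an H3K9 methyltransferase, rose by 0.88. Of 12 other jumonji proteins 2 (16.7%) fell and 2 (16.7%) rose (median -0.14). Hif1an at -1.32 and Hspbap1 fell, and Riox1 at 0.31 and Jmjd1c at 0.30, an H3K9 demethylase related to Kdm3a, rose.

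Some values rest on gene models that share sequence with a neighbour. At least 50 exonic bases overlapped another annotated gene in 26 of the 74 rows, and of these 14 (53.8%) fell and 4 (15.4%) rose. Among the 43 tested rows with no such overlap 26 (60.5%) fell and 3 (7.0%) rose. Of all genes tested 28.8% fell and 25.9% rose. Kat5, which fell, overlaps Rnaseh2c on the other strand, which rose (log2 fold change 0.47, adjusted p = 0.0173, edgeR). Kdm2b overlaps Rnf34, which rose by 0.85 on the log2 scale, and Kdm5a overlaps Ccdc77, which rose by 0.46 on the log2 scale. Sirt7 shares exonic bases with Mafg on the same strand, and Kdm1b with Dek on the other. How reads in such overlaps were assigned is not given in the sources used here, and their part in these values was not tested.

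Across the whole set, fold changes were weakly correlated with gene structure, although the offset for length moved the enzyme median from -0.31 to -0.18. Across the 69 tested enzymes the Spearman correlation of log2 fold change with transcript length was -0.19, and across 17181 genes of all kinds it was -0.14. By class this correlation ran from -0.37 in the zinc-dependent deacetylases to 0.35 in the demethylases. The correlation with GC content was -0.20 across the enzymes and -0.15 across all genes. These are descriptions over genes that share the same 6 libraries. Of the 47 called enzymes, 38 kept their call, wherever they were tested, under every other scaling, filter, offset and tool tried, with a replicate block and without any single library; a stricter threshold and a fold threshold were not counted. The 9 that lost it at least once were Hdac1, Kat2a, Kdm1a, Kdm2b, Kdm4a, Kdm4c, Kdm5a, Kmt2b and Nsd2.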

How the data were processed

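Messenger RNA was measured in 6 libraries of TRIzol-extracted total RNA. Per the submitters' processing notes the tools were DESeq2, StringTie 1.3.3, HISAT2 2.1.0 and FastQC 0.11.3 with the build GRCm38, and their roles and order are not stated. The annotation, the strand setting and the treatment of multiply mapped reads were not given in the sources used here. As deposited by the authors, the main table holds whole-number counts per gene symbol, not normalized, and a comparison table holds, per the file headers, a log2 fold change and an adjusted p-value.

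Genes were filtered with filterByExpr and libraries scaled by TMM. Dox libraries were tested against Vehicle libraries with the quasi-likelihood method of edgeR 4.0.16 (limma 3.58.1, R 4.3.3) on all genes, with Benjamini-Hochberg adjustment over 18067 genes and calls made under 0.05. Each standard error was the log2 fold change divided by the root of its F statistic. The common biological variation (BCV) was 12.0%. Lengths and overlaps came from GENCODE M21, matched for 27367 symbols, and promoters from RefSeq. The fit was also run on simulated counts in which few genes were changed, in both directions. That run cannot show how the scaling behaves when 54.7% of genes are called, as here.

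Replicates differed beyond counting error (chi-square over its degrees of freedom, 11.1 to 13.8), so no library was counted as another's repeat. Same-numbered libraries deviated with correlations of 0.069, 0.052 and -0.094 over 14635 genes, so numbers were not taken to pair them. Members, lists and the rule for named genes were chosen with earlier results of these data known; the rule gave full statistics to up to 4 members of each class with the largest changes and non-overlapping groups, its most abundant member and 8 set genes, and 2 genes of each partner list with the smallest p. Values beyond that rule, the paralogue ratios, the count by exonic overlap and that at 10 CPM were added once values had been seen. Alternatives were other scalings, DESeq2 1.42.0, other filters and thresholds, a replicate block, offsets for length and GC content, and leaving out each library.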

Additional observations from a re-analysis of the deposited data

How the results depend on the processing

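The enzymes that fell numbered 35 to 41 and those that rose 6 to 8 when each library was left out in turn. A fit with the replicate number as a block gave 41 lower and 8 higher, with 1 methyltransferase, Setd6, among the higher; it also called Kat6b and Kdm5c lower and lost Kdm2b (adjusted p = 0.0501). Against a 1.2-fold change (glmTreat), 2417 of all genes were higher and 3615 lower, 4 enzymes were higher and 28 lower, so 15 calls were lost, and 0 acetyltransferases were higher and 2 lower, and 0 demethylases were higher and 6 lower. At an adjusted p of 0.01, 8 enzyme calls were lost, and 0 demethylases were higher and 6 lower. The length offset gave 12 enzymes higher, 2 of them methyltransferases and 4 demethylases. Upper-quartile scaling gave 2 methyltransferases and 2 demethylases higher. The GC offset gave 1 zinc-dependent deacetylase and 0 demethylases higher. DESeq2 size factors and the DESeq2 test gave 0 demethylases higher, a filter at 5 CPM gave 2 and left 1 sirtuin lower, and leaving out a library gave 0 to 2. Signs turned only in uncalled genes. Ehmt1 turned under upper-quartile scaling (0.061), with the length offset (0.098) and without Dox replicate 3, and ranged from -0.12 to 0.045 as libraries were left out. Ezh2 turned with the GC offset (-0.014) and without Dox replicate 3, with a range of -0.0016 to 0.059. Hdac10 turned under upper-quartile scaling (0.093), without a filter (0.0066), with a filter at 5 CPM (0.019), with the GC offset (0.12) and without any 1 of 4 libraries, with a range of -0.041 to 0.037. Hdac8 turned with the length (-0.038) and GC offsets (-0.021) and without Vehicle replicate 1, with a range of -0.059 to 0.081. Kmt5b turned with the GC offset (-0.027) and Sirt3 under upper-quartile scaling (0.059). For these the cause was not tested. Depth limited Hdac9, Kdm6bos, Hdac11 and Sirt5, all near or below 1 CPM in Dox, and 5 rows could not be tested.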
